A study of Arabidopsis thaliana with 8 samples.

Results

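The heat shock factor gene HSFA2 and 8 heat shock protein genes were followed in Arabidopsis roots after treatment with mebendazole. The members were chosen by their locus identifiers, as a list of heat shock genes. All 9 were present among the 33602 genes of the count table. They are HSFA2 (AT2G26150), HSP101 (AT1G74310), HSP90.1 (AT5G52640), HSP17.6A (AT5G12030), HSP17.6II (AT5G12020), HSP17.6C (AT1G53540), HSP18.2 (AT5G59720), HSP21 (AT4G27670) and HSP22 (AT4G10250).

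The roots came from Col-0, the ecotype on which the reference genome is based. The MBZ group held 4 libraries from seedlings moved at 14 days to medium with 10 µM mebendazole (MBZ) for 4 h. The DMSO group held 4 libraries from seedlings moved for the same time to medium that held only the solvent, dimethyl sulfoxide (DMSO). Seedlings of both groups had grown on DMSO medium before the transfer. The comparison asks whether the drug, a benzimidazole that binds tubulin in parasitic worms, was followed by the transcript changes known from protein-folding stress. The labels do not say whether the 4 libraries of a group came from separate plants or cultures, so p-values measure the spread between these libraries, which may be technical.

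When proteins unfold in the cytosol of a plant cell, class A1 heat shock factors are released from chaperones and switch on HSFA2 and chaperone genes by binding repeated GAA units called heat shock elements. HSFA2 then prolongs that expression. The chaperones differ in role: HSP101 pulls proteins out of aggregates, HSP90 helps regulatory proteins fold, and small heat shock proteins hold unfolded proteins in a soluble state. Most small heat shock genes are nearly silent in unstressed vegetative tissue and are induced strongly by heat.

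The heat shock element was looked up in the 250 bases before each gene's annotated start, because the members share a known response to this element. The sequences come from the RefSeq assembly TAIR10.1, and the deposited tables carry no coordinates. Capitals mark a match to GAANNTTCNNGAA on either strand. The promoter of HSFA2, which had the largest rise among the tested members, holds 1 match, with its first base 88 bases before the start. That of HSP17.6C, which did not pass the test, also holds 1, at 53 bases. HSP18.2, which fell, is shown as a window with none, and the windows of HSP101 and HSP90.1, which rose, hold none either.
HSFA2 (chr2:11135374-11135623, + strand): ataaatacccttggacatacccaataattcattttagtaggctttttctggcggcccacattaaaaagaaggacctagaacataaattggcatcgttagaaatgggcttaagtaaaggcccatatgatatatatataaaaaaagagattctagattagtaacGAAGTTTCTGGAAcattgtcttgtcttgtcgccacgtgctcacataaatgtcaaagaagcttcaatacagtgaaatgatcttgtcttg
HSP17.6C (chr1:19980049-19980298, + strand): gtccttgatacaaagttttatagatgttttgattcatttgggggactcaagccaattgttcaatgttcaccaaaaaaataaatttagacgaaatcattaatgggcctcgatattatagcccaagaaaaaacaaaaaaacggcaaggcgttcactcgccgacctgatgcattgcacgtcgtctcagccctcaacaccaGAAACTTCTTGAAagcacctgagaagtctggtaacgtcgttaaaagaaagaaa
HSP18.2 (chr5:24062073-24062322, + strand): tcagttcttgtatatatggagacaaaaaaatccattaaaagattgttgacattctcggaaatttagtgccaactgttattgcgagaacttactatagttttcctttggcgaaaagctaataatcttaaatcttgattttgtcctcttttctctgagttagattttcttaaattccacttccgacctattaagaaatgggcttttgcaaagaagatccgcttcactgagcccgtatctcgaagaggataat

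Among the 9 members, 2 promoters (22.2%) held this element, against 106 of 27443 protein-coding genes (0.386%). The shorter form, GAANNTTC or TTCNNGAA, each its own reverse complement, is contained in the longer one and occurred in 4 of the 9 windows. These were HSFA2, HSP17.6C, HSP17.6A and HSP21, and the share over all promoters was 16.1%. For HSP90.1 the annotated gene start equals the coding start (0 bases apart), so its window need not be its promoter. The coding start lies 309 bases after the annotated start for HSP18.2 and 507 for HSP101, against 232 for HSFA2. The windows thus differ in their distance from the coding sequence. Elements outside the windows were not looked for, so a window with no match does not show that the gene lacks the element. Over all genes, the shares that changed were 32.9% higher and 33.6% lower in MBZ. Of 86 tested genes with the longer form, 32 were higher (37.2%) and 29 lower (33.7%) in MBZ by edgeR's test, with a median log2 fold change of 0.06. Of 3207 tested genes with the shorter form, 1042 were higher (32.5%) and 1091 lower (34%), with a median of -0.00.

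The response of the members to MBZ was split. HSFA2, HSP90.1 and HSP101 rose, HSP18.2 fell, and the other small heat shock genes stayed at or below 20 reads per library in both groups. Of the 9 genes, 5 passed the filter on low counts and were tested, and 4 of these passed an adjusted p of 0.05 in edgeR's quasi-likelihood test. The treatment changed much of the transcriptome: 66.5% of the 20867 tested genes passed the same threshold, 32.9% higher and 33.6% lower. Changes of at least 2-fold were found for 1 member in each direction, against 3.89% of tested genes higher and 3.9% lower.

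HSFA2, the regulator, had the largest change of the 5 tested members. It was read at 2.29, 1.94, 2.05 and 2.05 CPM (counts relative to the library total, scaled by TMM factors) in the MBZ libraries, against 0.649, 0.605, 0.703 and 0.681 CPM in the DMSO libraries. All 4 MBZ libraries lay above every DMSO library, as was the case for 59% of tested genes in one direction or the other. The log2 fold change was 1.66 ± 0.16 (SE), or 3.16-fold, with an edgeR adjusted p of 9.62e-16. The gene is rare even so: 379 reads in all came from the MBZ libraries and 127 from the DMSO libraries, and counting alone gives an SE of 0.15. On the log2(RPKM + 1) scale the change was 0.75, since a pseudocount of 1 exceeds the DMSO level.

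HSP90.1, the heat-inducible member of the cytosolic HSP90 family, was the second riser. Its level was 22.1, 21.5, 24.2 and 23.1 CPM in the MBZ libraries, against 11.6, 12.4, 11.5 and 13.4 CPM in the DMSO libraries. The groups were far apart compared with the spread inside each. The log2 fold change was 0.90 ± 0.05 (SE), or 1.87-fold, with an edgeR adjusted p of 3.17e-31. Its protein is 86.3% identical to that of HSP81-3, 85.4% to Hsp81.4 and 83% to HSP81-2, the constitutive cytosolic forms, so reads in shared stretches may be divided between them.

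The constitutive genes moved less than HSP90.1. HSP81-3 rose by 0.29, HSP81-2 by 0.07, and Hsp81.4 had a log2 fold change of -0.02 (adjusted p 0.637). Per kilobase of exon, HSP90.1 remained the least abundant of the 4, at 10.8 ± 0.575 CPM per kilobase in MBZ and 5.81 ± 0.406 in DMSO (SD, n = 4 each). HSP81-3, the most abundant of the family in MBZ, had 95.8 ± 2.27 CPM per kilobase in MBZ and 78.2 ± 1.08 in DMSO. HSP90.1 made up 4.91, 4.94, 5.53 and 5.08% of the family's length-scaled reads in MBZ libraries, against 3.01, 3.17, 2.98 and 3.44% in DMSO libraries. Every MBZ share exceeded every DMSO share (exact two-sided permutation test, p = 0.0286, the smallest possible with 4 against 4). The shares come from the same reads as the fold changes above, so this test is not separate evidence. With the reads of all 4 genes summed, the log2 fold change was 0.19 (edgeR adjusted p 1.05e-20).

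**Figure D1:**
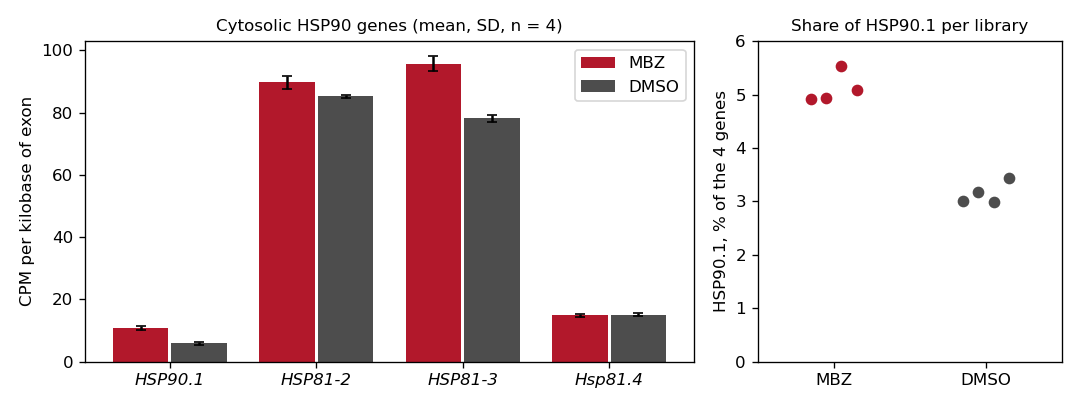
Left: mean level in CPM per kilobase of exon of the 4 cytosolic HSP90 genes in MBZ (red) and DMSO (grey), with bars from 0 and SD over 4 libraries. Right: the share of HSP90.1 among the 4 genes in each library, where all MBZ points lie at 4.91% or more and all DMSO points at 3.44% or less.

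HSP101, the disaggregase, changed little in size. Its values were 19.6, 19.5, 20.1 and 20.3 CPM in the MBZ libraries, against 17.9, 17.7, 17.1 and 17.7 CPM in the DMSO libraries. The groups did not overlap, but the gap was narrow. The log2 fold change of 0.18 ± 0.04 (SE), 1.13-fold, passed the threshold (edgeR adjusted p 0.000195). It did not pass a test against a 1.5-fold change (adjusted p 1).

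HSP18.2, a class I cytosolic small heat shock gene widely used as a heat reporter, went the other way. It had 2.04, 1.37, 1.62 and 1.42 CPM in the MBZ libraries, against 3.68, 4.10, 3.79 and 4.09 CPM in the DMSO libraries. Every MBZ library was lower than every DMSO library, with MBZ replicate 1 the highest of its group. The log2 fold change was -1.25 ± 0.12 (SE), so the level was 2.38-fold lower in MBZ, with an edgeR adjusted p of 4.69e-17. The protein is 84.9% identical to that of HSP17.6C and 80.5% to that of HSP17.4, another class I gene. With the reads of these 3 genes summed, the log2 fold change was -1.02 (edgeR adjusted p 2.69e-16).

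**Figure D2:**
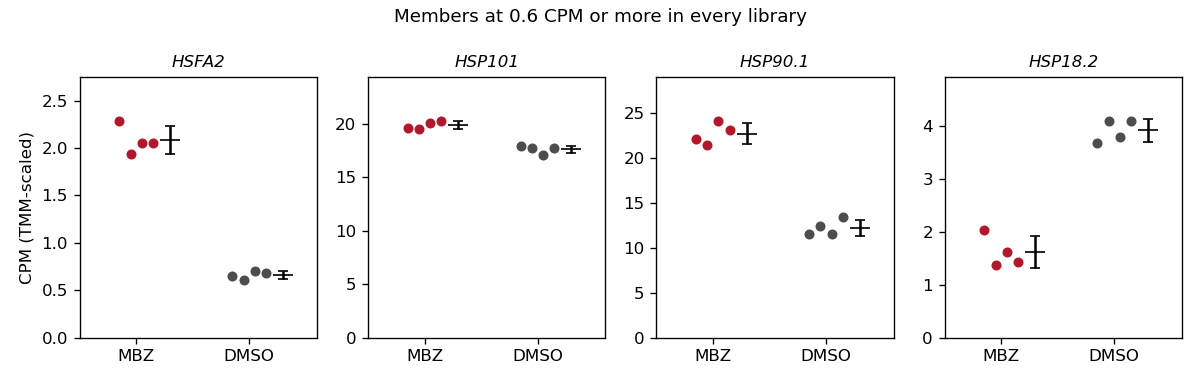
TMM-scaled CPM of HSFA2, HSP101, HSP90.1 and HSP18.2 in each of the 4 MBZ (red) and 4 DMSO (grey) libraries, with mean and SD beside the points and each axis starting at 0. HSFA2 (3.16-fold) and HSP90.1 (1.87-fold) are higher in MBZ, HSP101 is higher by 1.13-fold, and HSP18.2 is 2.38-fold lower.

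The 5 remaining small heat shock genes were near the limit of detection, where a floor of 3 reads corresponds to between 0.0547 and 0.0789 CPM. HSP17.6C, of cytosolic class I, had 9, 20, 4 and 6 reads in the MBZ libraries, against 11, 17, 8 and 17 in the DMSO libraries. The groups overlapped, and the difference of -0.35 ± 0.39 (log2, SE) did not pass edgeR's test (adjusted p 0.431). MBZ replicate 2 held 20 of the 39 MBZ reads, and without it the value was -1.0 (adjusted p 0.0464).

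HSP17.6A and HSP17.6II are the class II cytosolic pair, with proteins 83.9% identical. Both failed the count filter and were not tested. HSP17.6A had 7, 5, 7 and 4 reads in MBZ libraries and 10, 10, 7 and 5 in DMSO libraries, which overlap. The ratio of summed reads, scaled to depth, was 0.757 with an exact 95% counting interval from 0.423 to 1.33. HSP17.6II had 0 reads in all 4 MBZ libraries, and 2, 0, 0 and 2 in DMSO libraries, so both groups lay under the floor of 3 reads per library.

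HSP21 is targeted to plastids and HSP22 to the endoplasmic reticulum, and neither was tested in the filtered fit. HSP21 had 6, 7, 3 and 2 reads in MBZ libraries and 0, 0, 1 and 0 in DMSO libraries. The groups did not overlap, although the values are a handful of reads. The ratio of 18 to 1 summed reads, scaled to depth, was 19 with an exact 95% counting interval from 2.99 to 790. HSP21 passed the threshold in edgeR with no count filter (adjusted p 0.000849) and in DESeq2 (adjusted p 0.00447). HSP22 had 6, 0, 0 and 1 reads in MBZ libraries and 0, 0, 0 and 1 in DMSO libraries. The groups overlapped, since MBZ replicate 1 alone held 6 of the 7 MBZ reads. These intervals cover counting error only.

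**Figure D3:**
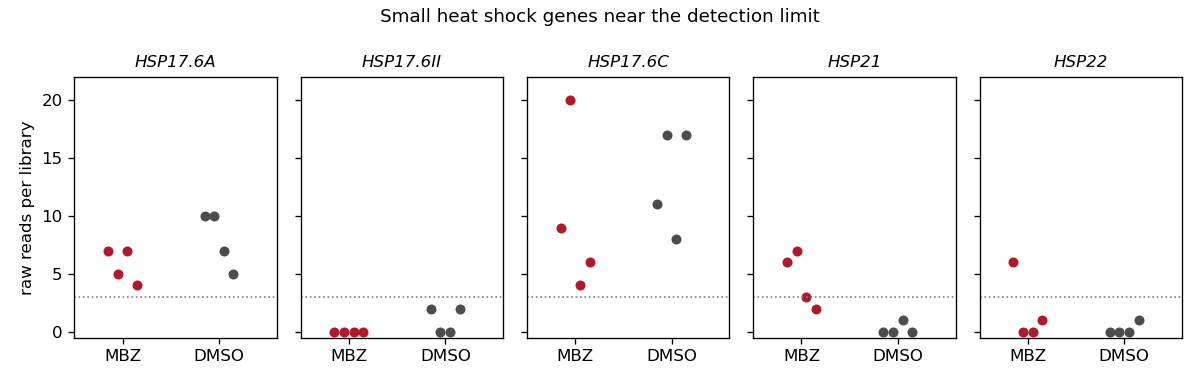
Raw reads per library for the 5 small heat shock genes near the detection limit, MBZ in red and DMSO in grey, with the floor of 3 reads dotted. HSP21 is the single gene of the 5 whose groups do not overlap, and no library of any of the 5 exceeds 20 reads.

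In order of level per kilobase of exon, MBZ libraries ran HSP90.1 (10.8), HSP101 (5.91), HSP18.2 (1.65), HSFA2 (1.11) and HSP17.6C (0.244 CPM per kilobase). In DMSO libraries HSP90.1 (5.81) and HSP101 (5.23) stood closer together, followed by HSP18.2 (4.00), HSFA2 (0.352) and HSP17.6C (0.320 CPM per kilobase). The SD of HSFA2 and HSP17.6C in DMSO were 0.0226 and 0.147 CPM per kilobase, so these neighbours did not differ beyond their spread. In bulk roots, fewer cells with a transcript and less of it per cell cannot be told apart.

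The other genes of the heat shock response were also split, in a list chosen by function. Of 20 other heat shock factors 17 were tested, with 8 higher (47.1%, against 32.9% of all tested genes) and 3 lower, and the median log2 fold change was 0.16 against 0.00 over all tested genes. HSFA6B, known for a role in abscisic acid signalling, rose most, to 6.34 ± 0.528 CPM in MBZ against 1.40 ± 0.124 CPM in DMSO (SD, n = 4 each). Its log2 fold change was 2.18. HSFA1D, one of the class A1 activators upstream of HSFA2, rose by 0.30, and the abundant HSFA7A by 0.16. Of the other class A1 genes, HSFA1E rose by 0.18, with overlapping groups. HSF1 (AT4G17750; 0.11) and HSF3 (AT5G16820; 0.06) did not pass edgeR's test. Lower were HSF A4A (AT4G18880; -0.87), RHA1 (AT5G45710; -0.24) and AT-HSFB2B (-0.16), whose call was lost without MBZ replicate 2 (adjusted p 0.0533). HSFA9 and HSF4 (AT4G36990) were listed at 0 in every library. The counting rule for overlapping genes is not given in the sources used here, so a 0 need not mean that HSF4 was not transcribed.

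Small heat shock genes outside the members changed in both directions. Of 10 tested, 1 was higher (10%) and 4 were lower (40%), against 32.9% and 33.6% of all tested genes, and the median log2 fold change was -0.25. AT1G52560 had a log2 fold change of -1.66, AT5G51440 of -0.81 and AT2G29500 of -0.25. The exception was AT4G21870, annotated as an HSP20-like chaperone. It had 31.6, 31.6, 31.2 and 30.8 CPM in MBZ libraries, against 0.807, 1.25, 0.814 and 1.15 CPM in DMSO libraries. Its log2 fold change was 4.98 (edgeR adjusted p 1.16e-73). The SE of 0.07 lies below the counting SE of 0.11 and is too small.

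Among HSP70 genes, which refold proteins with ATP, 6 of 10 tested were higher (60%) and 1 was lower (10%), against 32.9% and 33.6% of all tested genes. AT3G09440 rose by 0.84 on the log2 scale and HSP70 (AT3G12580), a heat-inducible form, by 0.73. Hsp70b (AT1G16030; -0.00), HSP70T-2 (0.06) and MTHSC70-2 (-0.02) did not pass edgeR's test. Hsp70b had 8.61 CPM in MBZ and 8.59 CPM in DMSO. HSC70-1, the most abundant, had 1920 ± 22.2 CPM in MBZ and 1590 ± 20.4 CPM in DMSO (SD, n = 4 each). The mitochondrial mtHsc70-1 had a log2 fold change of -0.58. Cytosolic HSP70 proteins are close relatives, so reads may be shared between AT3G09440 and HSC70-1. Of the 8 other HSP90 and CLPB genes, 3 were higher (37.5%) and 4 lower (50%), again against 32.9% and 33.6% of all tested genes. The lowest was SHD (-0.62), the HSP90 of the endoplasmic reticulum, followed by Hsp89.1 (AT3G07770; -0.24), the mitochondrial form. CLPB3, the plastid relative of HSP101, had -0.17, and CLPB4, a mitochondrial relative, had 0.08. That call was lost with upper-quartile factors (adjusted p 0.124), library size alone (0.0512) and on log2(RPKM + 1) in limma (0.19). It was also lost without MBZ replicate 3 (0.202) and without DMSO replicate 4 (0.0598).

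Of 16 co-chaperones and other heat-induced genes, 15 were tested. Of these 6 were higher (40%) and 5 lower (33.3%), against 32.9% and 33.6% of all tested genes. The median log2 fold change was 0.04. DREB2A, a transcription factor of heat and drought responses, rose by 0.88. J3 and Hop2, co-chaperones of HSP70 and HSP90, rose by 0.21 and 0.25. MBF1C (0.04), Hop3 (-0.08), AT5G48570 (-0.01) and HSA32 (0.11) did not pass edgeR's test, and APX2 failed the count filter. GolS1, a galactinol synthase gene and known target of HSFA2 in heat stress, fell to 29.1 ± 0.980 CPM in MBZ, against 84.0 ± 2.82 CPM in DMSO (SD, n = 4 each). Its log2 fold change was -1.53 (edgeR adjusted p 1.88e-65). AT4G02450, an HSP90 co-chaperone of the p23 type, had -0.19, and HSBP, which binds heat shock factors and limits their activity, had -0.21.

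Of 23 genes of the unfolded protein response of the endoplasmic reticulum, 17 were lower (73.9%) and 3 higher (13%), against 33.6% and 32.9% of all tested genes, with a median log2 fold change of -0.36. CRT1b, a calreticulin, had -0.81, the chaperone BIP2 -0.57, the calnexin CNX1 -0.48 and the abundant calreticulin CRT1a -0.32. BIP3, a gene strongly induced by folding stress of that organelle, had 0.828 ± 0.212 CPM in MBZ and 1.18 ± 0.223 CPM in DMSO (SD, n = 4 each). Its log2 fold change was -0.51 (edgeR adjusted p 0.0128). The sensor gene IRE1A and the factor gene BZIP17 rose by 0.16 and 0.20. BZIP28 had 0.06. Its call was lost in DESeq2 (adjusted p 0.0678), with upper-quartile factors (0.3), library size alone (0.136) and on log2(RPKM + 1) in limma (0.183). It was also lost without MBZ replicate 2 (0.179), MBZ replicate 3 (0.0907), DMSO replicate 2 (0.125) or DMSO replicate 3 (0.0589). BIP1 and BIP2 are near-identical, so their reads may be shared.

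All 4 mitochondrial chaperonin genes were lower, against 33.6% of all tested genes. HSP60-2 had a log2 fold change of -0.63, HSP60-3A of -0.36, CPN10 of -0.30 and HSP60 of -0.11. Of 20 genes for tubulin folding (the TCP-1 chaperonin, prefoldin and tubulin-folding cofactors), 12 were lower (60%) and 1 was higher (5%). The shares of all tested genes were 33.6% and 32.9%. Log2 fold changes in this list ran from -0.23 to 0.21. The chaperonin subunits AT5G20890, AT3G03960, TCP-1 and AT1G24510 had values of -0.23, -0.21, -0.15 and -0.14, and the cofactor gene POR had 0.21. Of 12 proteasome-related genes 10 were lower (83.3%) and 1 was higher (8.33%), again against 33.6% and 32.9% of all tested genes. The factor gene NAC053 had -0.87, and the subunits RPN1A, PAG1 and RPT1A had -0.31, -0.29 and -0.19. The higher gene was NAC2 (AT5G04410), another NAC factor gene, at 0.18.

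**Figure D4:**
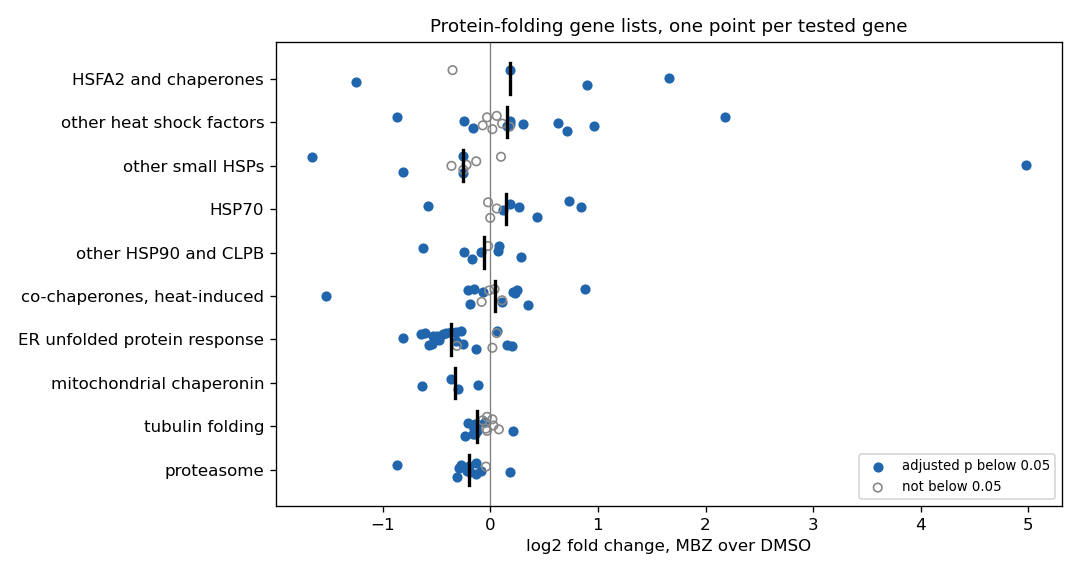
Log2 fold change of MBZ over DMSO for each tested gene of the 9 members and of 9 related lists, filled where the edgeR adjusted p was below 0.05, with the list median as a black bar. HSFA2 (1.66) and HSP18.2 (-1.25) mark the ends of the members' range, while the endoplasmic reticulum list lies mostly below 0 (median -0.36).

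The genes whose deviations from the group means were most like those of HSFA2 over the 8 libraries were AT5G35735, GLP9, LNO1, AT1G72410 and AT3G58110, with Pearson r between 0.96 and 0.98. These are the highest of 18925 values from 8 libraries. Those most like the mean of the 5 tested members were AT3G11450, LUT2, AT5G01590, AT2G36885 and MUB6 (r between 0.97 and 0.99, of 18922 genes). None of these 10 genes belongs to the heat shock lists. Their log2 fold changes lay between -0.34 (AT5G01590) and 1.32 (GLP9).

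Libraries held between 38042437 and 54818801 counts. All 7 root markers (EXPA7, SHV2, CASP1, SCR, PHO1, AT1G62500 and WOX5) were read in every library, with a summed level of 1090 to 1110 CPM in MBZ and 819 to 828 CPM in DMSO. Most of that gap is PHO1 (819 CPM in MBZ, 556 CPM in DMSO). Of the 7, 4 were higher (57.1%) and 3 lower (42.9%), against 32.9% and 33.6% of all tested genes. The lower ones were SHV2, CASP1 and AT1G62500, with log2 fold changes of -0.13, -0.05 and -0.40. The groups overlapped for CASP1. Of 7 markers of green shoot tissue none was at 0 in any library, and their summed level was 117 to 121 CPM in MBZ and 162 to 170 CPM in DMSO. Most of that sum is PSBR and RCA. Gene by gene 6 of the 7 were lower (85.7%, against 33.6% of all tested genes), 4 of them at least 2-fold (against 3.9%). The median log2 fold change was -1.64, with values of -3.83 for LHCB2.1, -3.65 for RBCS3B and -3.53 for CA1. The part of that shift in the members' changes was not tested.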

How the data were processed

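Per the labels, total RNA was extracted from ground frozen roots and libraries followed Illumina protocols. The authors deposited raw read counts for 33602 genes and RPKM values for 17872 of them. The submitters' processing notes name STAR 2.7.0a, edgeR 3.36.0 and the genome build TAIR10. The counting program, annotation and strand setting are not given in the sources used here, so overlapping or antisense genes and close paralogs may share reads. Samples were grouped by their titles. No column lacked a sample (0 columns left out).

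Counts were tested with edgeR 4.0.16 in R 4.3.3 (quasi-likelihood, TMM factors, filterByExpr, group as the single factor, all 8 libraries). The fit covered 20867 genes, with Benjamini-Hochberg adjustment over all of them and a threshold of 0.05. SE were derived from the F statistic of each gene (change over root F). The procedure was tested on simulated counts. All 12 within-group pairs of libraries differed by more than sampling noise (chi-square per degree of freedom 1.60 to 2.40). The spread beyond counting error was small even so, with a biological coefficient of variation of 1.91%. Symbols, exon lengths, promoters and protein identities (blastp 2.17.0) come from RefSeq TAIR10.1, which matched 32835 identifiers. HSP17.6C and HSP22 have no such symbol there and are given their usual names.

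The members and the other lists were chosen with earlier results of these data known. From each other list the text names the 3 genes with the smallest adjusted p past the threshold in each direction and the most abundant gene, and every gene of lists with under 5 tested. BIP3, HSFA9, HSF4, Hsp81.4, HSP17.4 and BIP1 lie outside that rule and were named after their values were seen. The same holds for HSFA1E, HSF1, HSF3, Hsp70b, HSP70T-2, MTHSC70-2, MBF1C, Hop3, AT5G48570, HSA32 and APX2. Alternatives were 3 other scalings, DESeq2 1.42.0, 2 count filters, a replicate block, limma 3.58.1 on log2 RPKM, a test against a 1.5-fold change (glmTreat), summed paralogs and leaving out each library.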

Additional observations from a re-analysis of the deposited data

Results flagged for a closer look

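The 5 tested members and the genes named by the rule above were checked for outlying libraries. The most deviant of the 4 libraries in each group was compared with Dixon's 95% limit, which made 104 groups in all. No tested member had such a library. The 4 groups that did belong to 3 genes of other lists, and chance gives about 1 in 20 groups (5%). BIP2 in MBZ had a ratio of 0.904, with replicate 2 low at 191 CPM against 193 to 194 CPM. HSP60 had 0.859 in MBZ, with replicate 3 low at 149 CPM, and 0.835 in DMSO, with replicate 3 high at 171 CPM. AT1G24510 in MBZ had 0.922, with replicate 2 low at 215 CPM.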

How the results depend on the processing

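The alternatives, sums with close paralogs included, gave 89 values of member log2 fold changes. Of these 86 kept their direction and their side of the threshold and none reversed. HSFA2 ranged from 0.75 to 1.70, HSP90.1 from 0.77 to 0.94, HSP101 from 0.14 to 0.19 and HSP18.2 from -1.41 to -1.02. The reads of HSP90.1 summed with those of HSP81-3, Hsp81.4 and HSP81-2 gave 0.19, which describes the family and not HSP90.1 alone. HSP101 lost its call in the test against a 1.5-fold change (0.18), which asks for a larger change. HSP17.6C passed the threshold when summed with HSP17.4 and HSP18.2 (-1.02), where HSP18.2 supplies most reads. Leaving out each library gave -1.0 to -0.10 for HSP17.6C, whose fit without DMSO replicate 2 had no value because the gene failed the filter, and from 4 to 5 members past the threshold. HSP21 entered as the fifth member with no count filter and in DESeq2. HSP17.6A and HSP17.6II summed still failed the filter.

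The test against a 1.5-fold change called 2564 of the 20867 tested genes in place of 13877. It called 3 of 17 other heat shock factors, 3 of 10 other small heat shock genes and 2 of 10 HSP70 genes. Called too were 1 of 8 other HSP90 or CLPB genes, 2 of 15 co-chaperone or heat-induced genes and 1 of 23 endoplasmic reticulum genes. The last calls were 1 of 4 mitochondrial chaperonins and 1 of 12 proteasome-related genes. For tubulin folding glmTreat called 0 (0 at an unadjusted p under 0.05), while DESeq2, with no minimum change, called 13.

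Equal replicate numbers showed no pairing: the mean correlation of deviations was -0.008 between libraries of equal number and 0.003 between the rest. With the replicate block 13786 genes and the same number of members (4) passed, and no member changed its call. Depth limits HSP17.6A, HSP17.6II, HSP21 and HSP22, which had at most 10 reads in any library.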
